A study of Mus musculus with 12 samples.

Results

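The genes described here are 40 genes of the cell cycle and DNA replication, taken as a named list: 15 genes of DNA replication and of entry into S phase, 6 cyclins and kinases of G1, and 19 genes of G2 and mitosis. Every probe set of the Affymetrix MOE430 A and B arrays that the platform annotation gives to exactly 1 of these genes was used. These were 73 of the 22690 A probe sets and 22 of the 22575 B probe sets. They cover 39 genes, of 18194 genes named alone by a probe set of either design. All 39 have a probe set on the A array, and 17 also have one on the B array. Ccnb1 was not analysed here, because no probe set was annotated to it alone, and a Tyms probe set shared with a Tyms pseudogene was left out. The RNA was from wild type mouse limbs at E12.5, from the autopods, where the digits of the hand or foot form. The forelimb is represented by samples 11, 13 and 25 and the hindlimb by samples 12, 14 and 26, so n = 3 a limb, and each sample was run once on either design. No treatment or mutation is named for either limb, and the sources used here give neither the strain nor any pooling of embryos. Nothing says that the samples were separate litters, so p-values rest on the spread among these samples, which may be technical. The limb of forelimb 11 on the A array rests on the letter in its title, since its tissue label names no limb.

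DNA is copied once per cycle. In G1, D-type cyclins activate Cdk4 and Cdk6, which release E2F transcription factors from the retinoblastoma proteins. E2F factors then drive genes for cyclin E and for the replication machinery, in which Cdc6 helps load the ring of Mcm2 to Mcm7 proteins on origins and Cdc45 turns that ring into the working helicase. Transcripts of mitotic genes rise later, in G2, and are known to be held down in quiescent cells through the CHR element of their promoters. In the limb bud, mesenchyme divides throughout, and cells slow or leave the cycle as they condense into cartilage or form muscle. In tissue RNA, a smaller share of dividing cells and less of a transcript per dividing cell cannot be told apart.

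All values are scaled signals, MAS5.0 signals brought to a 2% trimmed mean of 500 on each array. Differences are hindlimb minus forelimb means of log2(signal + 32), so that a positive value is higher in hindlimb. The added 32 makes changes of dim probe sets look smaller than they are. A probe set was tested when its scaled signal reached 100 on at least 3 of 6 arrays. Of the member probe sets, 68 on the A array (38 genes) and 20 on the B array (15 genes) were tested, of 15338 and 17145 tested in all. That signal was reached by 65.5% to 68.1% of probe sets per A array and by 72.7% to 75.5% per B array. The scaling multiplied deposited signals by 1.43 on the A array and by 7.14 on the B array. The same cut is therefore a lower deposited signal on the B array. The autopod factor Hoxd13 was well above it, ranging from 1962 to 2876 over the forelimb samples and from 1918 to 2935 over the hindlimb samples (A array). As a check of the limb labels, Tbx5 had a limma difference of -3.83 on the A array (adjusted p = 0.00441) and Pitx1 one of 1.95 (adjusted p = 0.00441). Forelimb 11 itself had 1145 for Tbx5, against 29.3, 174 and 29.7 in the hindlimb samples. For Pitx1 it had 160, against 478, 678 and 501.

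No cell cycle gene differed between the limbs past the threshold. By limma with Benjamini-Hochberg adjustment over a whole array, 0 of 68 member probe sets on the A array and 0 of 20 on the B array had an adjusted p under 0.05, where 0.0326% and 0.0117% of all tested probe sets did. At an unadjusted p under 0.05 there were 2 members on the A array, Bub1 and Ccnf, which is 2.94% of the members against 5.54% of all tested probe sets. On the B array there was 1, Cdc45, which is 5% against 5.54%. The differences were also small: on the A array the brightest probe set of each gene gave values between -0.27 (Cdc25c) and 0.33 (Tyms). The 95% limma intervals of these 38 genes lay within -0.65 and 0.84. The interval of the proliferation marker Mki67 ran from -0.31 to 0.19, that of Top2a, the topoisomerase of dividing cells, from -0.20 to 0.19, and that of Cdk1, the mitotic kinase, from -0.24 to 0.20.

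**Figure D1:**
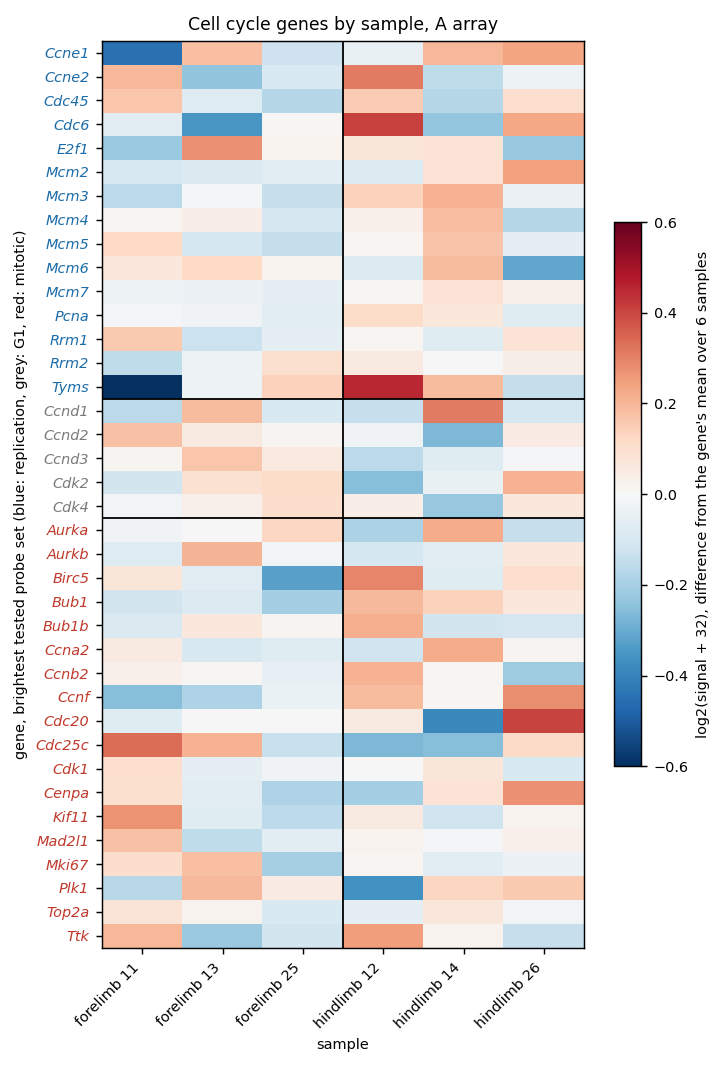
Log2(signal + 32) of each cell cycle gene on the A array as a difference from the mean of that gene over the 6 samples, for the brightest tested probe set of 38 genes, grouped as replication, G1 and mitotic genes. Columns are the 3 forelimb and 3 hindlimb samples, and the colour runs from -0.6 to 0.6. Of the 15 replication genes, 12 in hindlimb 12 and 11 in hindlimb 14 are above their own mean, against 6, 4 and 5 in forelimb 11, 13 and 25 and 7 in hindlimb 26.

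The signs of the values were counted for each group, and differences between the groups were not tested. Of the 15 replication genes on the A array, 13 had a positive difference and 2 a negative one, with a median of 0.081, against a median of -0.009 and 47.8% positive over all tested probe sets. Of the 18 mitotic genes measured there, 10 were positive and 8 negative, with a median of 0.006. Of the 5 G1 genes tested there, 1 was positive and 4 negative, with a median of -0.081. On the B array the replication genes had 3 positive and 3 negative values of 6, with a median of 0.017. The mitotic genes there had 4 positive and 3 negative values (median 0.026) and both G1 genes tested were positive (median 0.182), against a median of -0.014 and 47.8% positive over all tested probe sets. Both designs measured the same numbered samples, so the B array is no separate set of samples. Of the 14 genes tested on both, 5 had the same sign on both by their brightest probe sets. Among the replication genes these were Ccne1 and Tyms, while Cdc45, Mcm5, Mcm6 and Rrm1 differed in sign. Within the A array, 16 genes had several tested probe sets, and for 9 of them all had 1 sign.

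**Figure D2:**
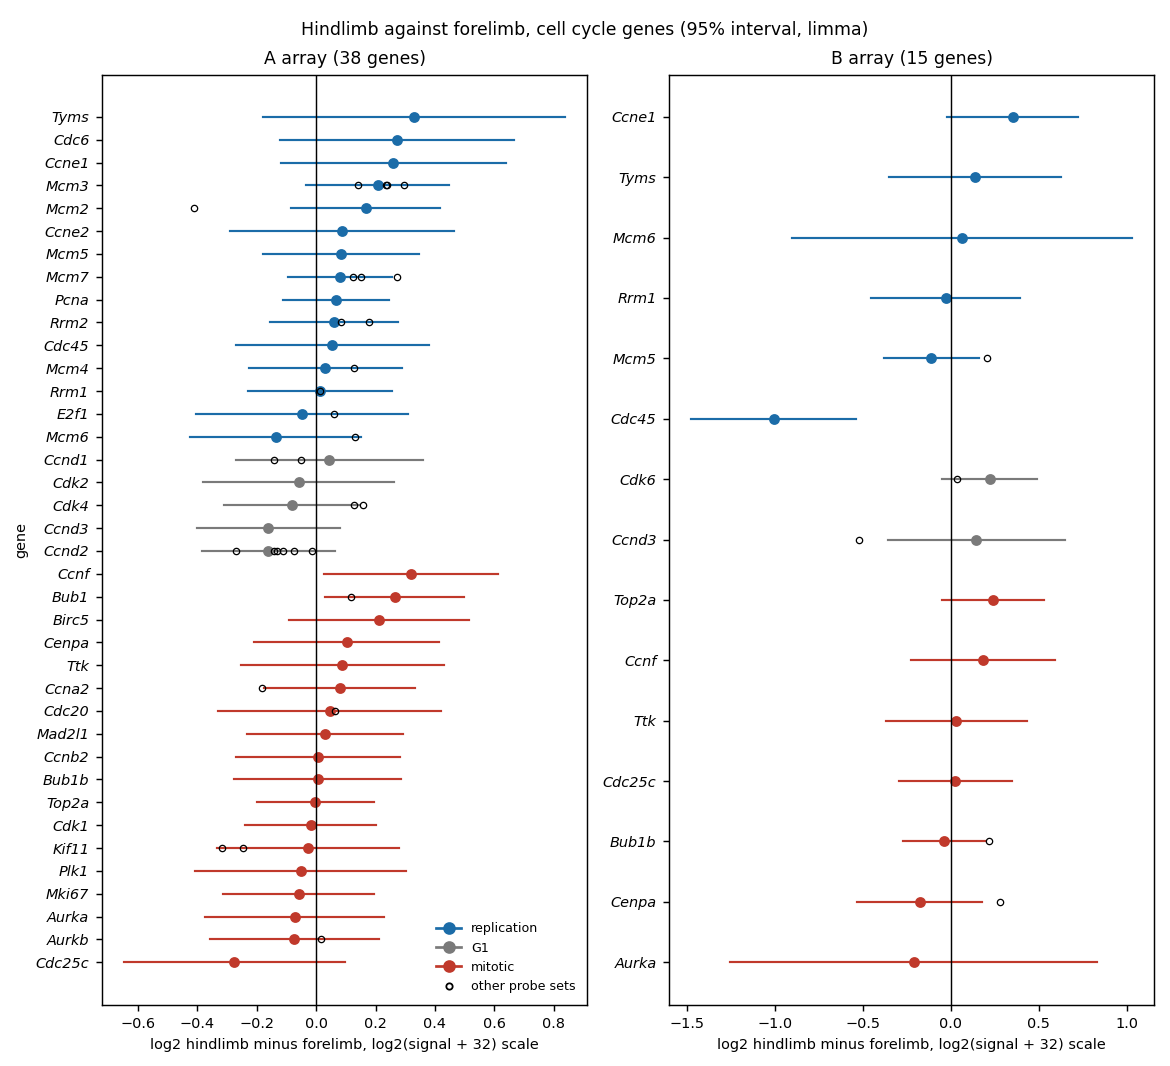
Difference of each gene, hindlimb minus forelimb means of log2(signal + 32), for 38 genes on the A array (left) and 15 on the B array (right). Filled points are the brightest tested probe set with its 95% limma interval, coloured by group, and open points are the other tested probe sets of the gene. On the A array 13 of 15 replication genes lie to the right of 0, all 15 with intervals that cross it, and on the B array Cdc45 lies at -1.01.

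The 6 subunits of the Mcm2 to Mcm7 helicase ring, which unwinds DNA ahead of the fork, carried most of the probe sets of the replication group. Mcm7 had 4 probe sets on the A array, and all 3 hindlimb samples were above all 3 forelimb samples on each. This gene was singled out after its values were seen. On the brightest (1438320_s_at) the signals were 7201, 7186 and 7091 in forelimb samples 11, 13 and 25 and 7394, 7815 and 7515 in hindlimb samples 12, 14 and 26. The difference was 0.08 ± 0.08 (SE, limma adjusted p = 0.972). The next (1416030_a_at) gave 3728, 3509 and 3647 in forelimb and 4003, 4042 and 4058 in hindlimb, a difference of 0.15 ± 0.09 (adjusted p = 0.948). The dimmest (1439269_x_at) had the largest value of the 4, 0.27 ± 0.13 (adjusted p = 0.911), from 885, 1012 and 870.5 in forelimb to 1244, 1085 and 1039 in hindlimb. On the remaining one (1416031_s_at) the limbs only just parted, at 2284 in forelimb 11 and 2286 in hindlimb 12. The 4 probe sets read the same RNA of 1 gene and are not 4 replicates of a change.

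Over all replication probe sets of the A array, all hindlimb samples were above all forelimb samples on 5 of 29, or 17.2%, against 4.94% of all tested probe sets. Of these 5, 4 were those of Mcm7 and the other was one of Mcm3. None was below in hindlimb, where the share of all tested probe sets was 6.1%. Counted by gene on the brightest probe set, 1 of 15 replication genes, Mcm7, was above in hindlimb without overlap. The 17.2% therefore counts mostly 1 gene several times.

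Mcm3, another ring subunit, had 5 tested probe sets, and each gave a positive difference, from 0.14 to 0.30. On the brightest (1420028_s_at) the signals were 2433, 2697 and 2468 in forelimb and 2996, 3154 and 2651 in hindlimb, so that hindlimb 26 lay below forelimb 13. The difference was 0.21 ± 0.11 (limma adjusted p = 0.94). Mcm2 gave opposite values on its 2 probe sets. One (1448777_at) had 2194, 2207 and 2239.9 in forelimb and 2218, 2495 and 2785 in hindlimb (0.17 ± 0.11, adjusted p = 0.959). The other (1434079_s_at) had 2286, 1554 and 2677 in forelimb and 2148, 1653 and 1121 in hindlimb (-0.41 ± 0.24, adjusted p = 0.94). The samples ranked differently on the 2 probe sets: hindlimb 26 was the highest on the first and the lowest on the second. In Affymetrix naming a suffix of _s_at or _x_at marks probes that can match more than 1 transcript, as for the second Mcm2 probe set and some of Mcm7, Mcm3 and Mcm6. Outside the ring, the brightest A probe sets of Cdk4, Rrm2, Cdc20 and Aurkb carry such a suffix. So do the brightest B probe sets of Ccne1, Mcm5, Mcm6, Ccnf, Cdc25c and Bub1b. Mcm6 differed in sign as Mcm2 did, with -0.14 and 0.13 on the A array and 0.07 on a dim B probe set. Mcm4 (0.03 and 0.13) and Mcm5 (0.08, and -0.11 and 0.21 on the B array) overlapped between limbs on every probe set.

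**Figure D3:**
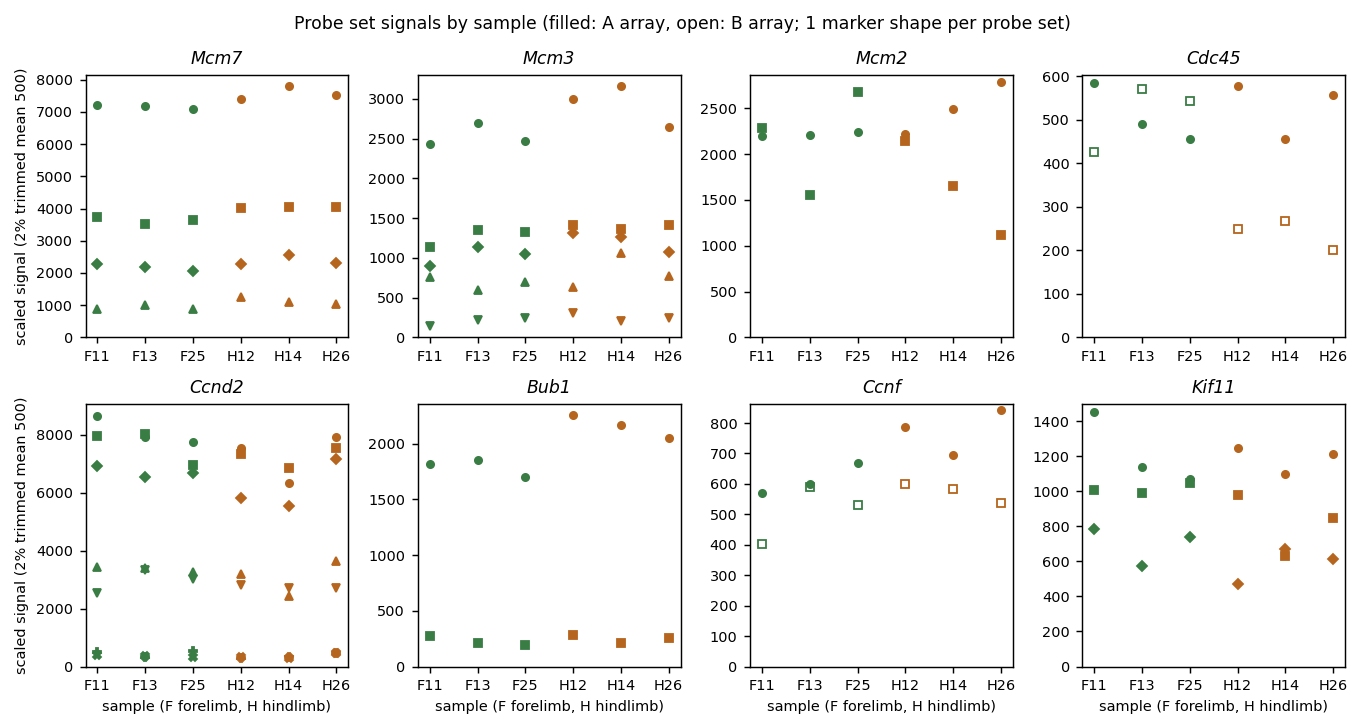
Scaled signal of each tested probe set in each sample for 8 genes, with forelimb samples in green, hindlimb samples in brown, and a marker shape for each probe set. Filled markers are the A array and open markers the B array, whose levels are not on one scale. The Mcm7 probe sets are each higher in the hindlimb samples, the 2 Mcm2 probe sets lie farthest from each other in hindlimb 26, and Cdc45 parts the limbs on the B array alone.

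Among the factors that load and start the helicase and the clamp, the limbs overlapped on every A probe set, and Cdc45 parted them on the B array. Cdc6, the loading factor, had 606, 493 and 639 in forelimb and 857, 536 and 753 in hindlimb, with a difference of 0.27 ± 0.18 (limma adjusted p = 0.955). Hindlimb 14 lay within the forelimb range, and hindlimb 12 and 26 were above it. Pcna, the sliding clamp of the polymerase, had 9402, 9339 and 9049 in forelimb and 10245, 9894 and 9024 in hindlimb (0.07 ± 0.08, adjusted p = 0.982, 95% interval -0.11 to 0.25). Cdc45, the helicase cofactor, gave different results on the 2 designs. Its B probe set (1457838_at) had 425, 571 and 543 in forelimb and 249, 266 and 200 in hindlimb, a difference of -1.01 ± 0.21 with an unadjusted p of 0.000662 and a limma adjusted p of 0.536. All hindlimb samples were below all forelimb samples there. On the A array (1416575_at) the signals of the same numbered samples were 584, 489 and 455 in forelimb and 578, 457 and 557 in hindlimb, with a difference of 0.06 ± 0.15, and the limbs overlapped. The B probe set was the 1 of 7 tested replication probe sets on that array (14.3%) below in hindlimb without overlap, where 6.14% of all tested probe sets were.

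Enzymes of nucleotide supply overlapped between the limbs on every probe set tested. Rrm1 and Rrm2, the subunits of ribonucleotide reductase, gave 0.01 and 0.01, and 0.06, 0.08 and 0.18, on their A probe sets, and Rrm1 gave -0.03 on the B array. Tyms, thymidylate synthase, gave 0.33 ± 0.23 on the only A probe set tested (limma adjusted p = 0.962) and 0.14 on the B array. That A probe set was dim, with 94.0, 156 and 179.5 in forelimb and 230.5, 187 and 142 in hindlimb. A further 2 Tyms probe sets on the A array reached at most 64.6 and were not tested.

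The regulators of S phase entry overlapped between the limbs on every probe set tested. Ccne1, a cyclin E that activates Cdk2 at the start of S phase, had, on the A array, 396, 631 and 505 in forelimb and 535, 639.7 and 656 in hindlimb (0.26 ± 0.17, limma adjusted p = 0.955). Its B signals were 2577, 4076 and 3053 in forelimb and 4093, 4583 and 3569.5 in hindlimb (0.35 ± 0.17, adjusted p = 0.904). Forelimb 11 was the lowest sample and forelimb 13 reached into the hindlimb range on both. Ccne2, the second cyclin E, gave 0.09. E2f1, the activating E2F factor, gave -0.05 and 0.06 on the A array. The E2f1 probe set of the B array did not pass the signal filter, with 100 to 346 in forelimb and 45 to 99.3 in hindlimb.

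Since E2F factors are known to act through a short promoter element, the promoters of these genes were read for it. The element was spelled TTTCCCGC, TTTGGCGC, TTTCGCGC or TTTGCCGC and searched on both strands in the 250 bases before the start, in RefSeq promoters of GRCm38.p6. Of the 14 promoters of the 13 replication genes found there, 4 held a match (28.6%), against 6.25% of the 16 mitotic promoters, 20% of the 5 G1 promoters and 1.86% of all 32851 promoters. The 4 windows with a match are shown with its bases in capitals, in the orientation of the gene. They lie at chr8:75109334-75109393 on the plus strand for Mcm5, chr1:128359719-128359778 on the minus strand for Mcm6, chr5:138172015-138172074 on the minus strand for Mcm7 and chr11:98907987-98908046 on the plus strand for Cdc6. In Mcm5, 2 matches on opposite strands overlap. The Mcm6 promoter held 3 matches, and the 1 nearest the start is shown. The other promoter of Mcm7 held no match.
Mcm5: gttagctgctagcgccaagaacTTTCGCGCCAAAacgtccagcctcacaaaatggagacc
Mcm6: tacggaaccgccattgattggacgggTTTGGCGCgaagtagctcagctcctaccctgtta
Mcm7: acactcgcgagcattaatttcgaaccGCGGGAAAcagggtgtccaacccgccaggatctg
Cdc6: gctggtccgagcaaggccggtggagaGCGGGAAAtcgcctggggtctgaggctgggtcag
The brightest A probe sets of these 4 genes gave 0.08 (Mcm5), -0.14 (Mcm6), 0.08 (Mcm7) and 0.27 (Cdc6), all with 95% intervals that cross 0. The other A probe set of Mcm6 gave 0.13. Whether a match goes with the limb difference was not tested. A match describes the letters of the promoter and is not a measured binding site.

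Of the 5 G1 genes tested on the A array, 4 had a negative value on their brightest probe set, and 2 of these, Cdk4 and Cdk2, turned positive when hindlimb 14 (Cdk4, 0.013) or hindlimb 12 (Cdk2, 0.055) was left out. Ccnd2, a D-type cyclin, had 7 tested probe sets, and each gave a negative difference, from -0.27 to -0.01. On the brightest (1416122_at) the signals were 8659, 7946 and 7740.4 in forelimb and 7546, 6354 and 7937 in hindlimb, with a difference of -0.16 ± 0.10 (limma adjusted p = 0.955). Hindlimb 14 was the lowest sample and hindlimb 26 lay within the forelimb range. Ccnd3, another D-type cyclin, had 1877, 2083 and 1932 in forelimb and 1652, 1764 and 1846 in hindlimb, as A signals (-0.16 ± 0.11, adjusted p = 0.959), with all hindlimb samples below all forelimb samples. It was 1 of 15 G1 probe sets to part so, or 6.67%, close to the 6.1% of all tested probe sets. Its 2 probe sets on the B array differed in sign. One had 731, 656 and 387 in forelimb and 719, 589 and 604 in hindlimb (0.14 ± 0.23), and a dimmer one had 214, 244 and 164 in forelimb and 111, 173 and 121 in hindlimb (-0.52 ± 0.31, adjusted p = 0.904).

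Ccnd1, the D-type cyclin best known as a growth factor response, had 2922, 3738 and 3075 in forelimb and 2976, 4072 and 3047 in hindlimb, for its brightest probe set. The difference was 0.04 ± 0.14, and its other probe sets gave -0.05 and -0.14, with limbs overlapping on all 3. Cdk4, a kinase partner of the D cyclins, had 5130.2, 5294 and 5592 in forelimb and 5342, 4425 and 5427 in hindlimb for its brightest probe set (1422441_x_at, -0.08 ± 0.10). The other 2 (1422439_a_at and 1422440_at) gave 0.13 and 0.16. Cdk2, the partner of cyclin E, had 889.7, 1029 and 1042 in forelimb and 803, 935 and 1120.2 in hindlimb (-0.06 ± 0.15). Cdk6, the other D cyclin kinase, was below the signal filter on the A array. Its 2 probe sets of the B array gave 0.22 ± 0.12 (limma adjusted p = 0.904) and 0.04 ± 0.14. The first had 1937, 2238 and 2193 in forelimb and 2291, 2460.4 and 2680.4 in hindlimb, and was the 1 of 20 member probe sets of that array above in hindlimb without overlap (5%, against 4.81% of all tested probe sets).

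Among the mitotic genes, the values nearest the threshold belonged to Bub1 and Ccnf. Bub1, a kinase of the spindle checkpoint, had 1819.6, 1854 and 1703 in forelimb and 2257, 2167 and 2056 in hindlimb for its brighter probe set. The difference was 0.26 ± 0.11, with an unadjusted p of 0.0301 and a limma adjusted p of 0.809. Its dimmer probe set gave 0.12 ± 0.18 with overlapping limbs. Ccnf, cyclin F, an F-box protein that marks proteins for breakdown in G2, had 572, 600.4 and 669 in forelimb and 788, 693 and 842 in hindlimb (0.32 ± 0.13, unadjusted p = 0.0347, adjusted p = 0.855). Its B probe set gave 0.18 ± 0.19, with forelimb 13 inside the hindlimb range. These 2 were the mitotic probe sets with all hindlimb samples above all forelimb samples, 8.33% of 24 against 4.94% of all tested probe sets.

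Other regulators of mitosis spread to both sides of 0. Birc5, survivin, a part of the chromosomal passenger complex, had 2382, 2167 and 1802 in forelimb and 2779, 2153 and 2432 in hindlimb (0.21 ± 0.14, limma adjusted p = 0.955). Aurkb, the kinase of the same complex, gave -0.07 and 0.02. Cdc25c, the phosphatase that activates Cdk1, had the lowest value among the brightest A probe sets, from 547, 498 and 385 in forelimb to 348, 352 and 464 in hindlimb (-0.27 ± 0.17, adjusted p = 0.952), and 0.03 on the B array. Plk1 (-0.05) and Aurka (-0.07), kinases of mitotic entry and spindle assembly, overlapped between limbs, also on a dim B probe set of Aurka (-0.21), as did the cyclins Ccnb2 (0.01) and Ccna2 (0.08 and -0.18).

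Other checkpoint and segregation genes gave values of both signs. The checkpoint genes Bub1b (0.01), Mad2l1 (0.03) and Ttk (0.09) and the anaphase activator Cdc20 (0.05 and 0.06) had overlapping limbs, and 1 more Cdc20 probe set was below the filter. The B array gave -0.04 and 0.22 for Bub1b and 0.03 for Ttk, again with overlap. Kif11, the spindle motor Eg5, gave -0.03, -0.32 and -0.25 on its 3 probe sets. On the second (1452314_at) the signals were 1006, 989 and 1048 in forelimb and 981, 634 and 846 in hindlimb (limma adjusted p = 0.94). It was the only mitotic probe set below in hindlimb without overlap, 4.17% of 24 against 6.1% of all tested probe sets. Cenpa, the centromeric histone, gave 0.10 on the A array and -0.18 and 0.28 on the B array. The brighter of those B probe sets had 1289, 1135 and 1175 in forelimb and 1001, 898 and 1308 in hindlimb (-0.18 ± 0.16, adjusted p = 0.93).

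The standard markers of dividing cells overlapped between the limbs on each tested probe set. Mki67 had 4153, 4379 and 3354 in forelimb and 3885, 3686 and 3767 in hindlimb (-0.06 ± 0.11, limma adjusted p = 0.995). Forelimb 25 was the lowest sample and forelimb 13 the highest, so the hindlimb samples lay inside the forelimb range. Cdk1 had 3601, 3237 and 3316 in forelimb and 3350.4, 3531 and 3150.4 in hindlimb (-0.02 ± 0.10, adjusted p = 0.997). Top2a gave 0.00 on the A array, where a second probe set was below the filter. Its B probe set had 1827, 2121 and 1701 in forelimb and 2402, 2074 and 2197 in hindlimb (0.24 ± 0.13, adjusted p = 0.904). There hindlimb 14 fell inside the forelimb range.

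The CHR element of mitotic promoters, spelled TTTGAA or TTCGAA, was searched in the same way, with the CCAAT box, spelled CCAAT, that often accompanies it. CHR letters stood in 8 of the 16 mitotic promoters found (50%), 3 of 14 replication promoters (21.4%), 0 of 5 G1 promoters and 17.1% of all promoters. CCAAT stood in 87.5%, 71.4%, 40% and 33.8% of these, and both elements in 50% of the mitotic promoters against 6.02% of all. The promoter of Bub1 held CCAAT without CHR letters in this window. For 3 genes with a match close to the start, the last 60 bases before it are shown with CHR and CCAAT (or its complement ATTGG) in capitals. They lie on the minus strand at chr10:69352913-69352972 for Cdk1, chr17:24251410-24251469 for Ccnf and chr4:118437344-118437403 for Cdc20.
Cdk1: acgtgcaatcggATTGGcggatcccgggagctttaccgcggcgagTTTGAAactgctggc
Ccnf: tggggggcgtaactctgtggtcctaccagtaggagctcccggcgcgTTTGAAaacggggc
Cdc20: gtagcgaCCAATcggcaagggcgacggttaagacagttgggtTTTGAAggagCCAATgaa
These 3 genes gave limb differences of -0.02, 0.32 and 0.05 on their brightest A probe sets. They are not all the promoters of this kind. Kif11 and Top2a also held CHR letters near the start, at positions -19 and -23, and are not shown. Their brightest A probe sets gave -0.03 and -0.003.

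To set replication against mitotic genes within each sample, the deviation of each gene from its own mean over the 6 samples was averaged over the genes of a group. On the A array the replication mean was -0.071, -0.033 and -0.049 in forelimb 11, 13 and 25 and 0.104, 0.056 and -0.006 in hindlimb 12, 14 and 26, on the log2(signal + 32) scale. All hindlimb samples were above all forelimb samples, with hindlimb 26 nearest the forelimb range. With the median over genes in place of the mean the limbs overlapped, at -0.032, -0.031 and -0.067 in forelimb against 0.053, 0.086 and -0.033 in hindlimb. The mitotic mean was 0.040, -0.006 and -0.082 in forelimb and 0.010, -0.006 and 0.044 in hindlimb, so the limbs overlapped. The mean of replication minus mitotic genes was -0.112, -0.027 and 0.034 in forelimb and 0.093, 0.062 and -0.050 in hindlimb, and also overlapped. The G1 mean was -0.020, 0.105 and 0.039 in forelimb and -0.107, -0.060 and 0.043 in hindlimb.

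The limbs overlapped on the B array for both replication and mitotic genes. The replication mean was -0.023, 0.248 and -0.075 in forelimb and -0.028, -0.018 and -0.104 in hindlimb, with forelimb 13 far above the others. The mitotic mean was 0.050, 0.077 and -0.138 in forelimb and 0.054, -0.088 and 0.045 in hindlimb. The G1 mean there rests on 2 genes and was 0.015, 0.042 and -0.329 in forelimb and 0.123, 0.036 and 0.114 in hindlimb, with forelimb 25 far below the others. The difference between replication and mitotic medians was 0.074 for the A array (0.034 without hindlimb 12) and -0.008 for the B array. The groups were chosen with earlier results of these data known, and no p is given for these means.

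**Figure D4:**
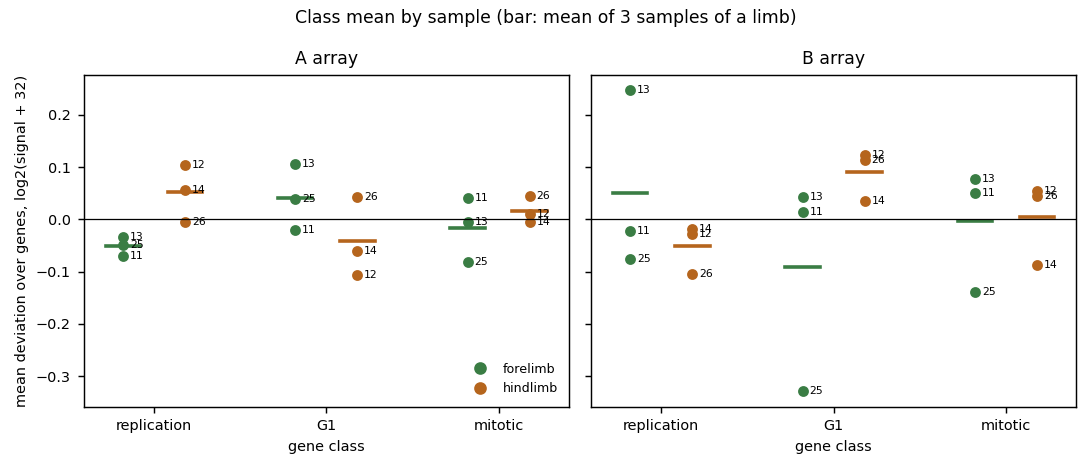
Mean deviation of the replication, G1 and mitotic genes in each sample, as log2(signal + 32) minus the mean of each gene over 6 samples, on the A array (left) and B array (right). Points are samples with their numbers, green for forelimb and brown for hindlimb, and bars are the mean of 3 samples. On the A array the replication points of the hindlimb, -0.006 to 0.104, lie above those of the forelimb, -0.071 to -0.033, and on the B array they overlap. With the median over genes hindlimb 26 (-0.033) falls inside the forelimb range on the A array too.

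Some marker lists of other cell types did not overlap between the limbs either. The summed signal of 7 of 8 erythroid markers on the A array was 28680 to 31315 in forelimb and 32172 to 35588 in hindlimb. Of the 6 erythroid genes tested 5 were positive, and the embryonic globin Hbb-y, from circulating primitive red cells, had a difference of 0.18 ± 0.07 (limma adjusted p = 0.787). For 10 ectoderm markers the forelimb sums ran from 4403 to 5565 and the hindlimb sums from 3641 to 4195. Their 9 tested genes did not share a direction, with 4 positive, 5 negative and a median of -0.013. Keratin genes stood on both sides, with Krt15 (-1.38), Krt14 (-0.83) and Krt5 (-0.40) negative and Krt18 (0.305) and Krt8 (0.28) positive. The sides were not equal: the 3 negative ones had an unadjusted limma p under 0.05 and were below in hindlimb without overlap. For Krt15 the adjusted p was 0.059. Neither Krt18 (overlapping) nor Krt8 (above in hindlimb without overlap) reached that unadjusted p. Muscle markers (10 genes) gave sums of 1457 to 1866 and 1092 to 1399, in the same order of limbs, with 5 of 5 tested genes negative. Endothelial markers (8 genes) gave 2316 to 2416 and 2162 to 2282, with 2 tested genes positive and 5 negative. Summed cartilage markers overlapped (10426 to 11419 and 8580 to 10627), with 7 of 9 tested genes negative and a median of -0.333. Col9a1, the brightest of the tested genes (3938 to 5963), made up much of that sum and was positive (0.19). At an unadjusted limma p under 0.05, 4 of the 9 were lower in hindlimb and 0 higher, against 5.54% of all tested probe sets. These were Acan (-0.72), Col2a1 (-0.61), Col9a2 (-0.78) and Matn4 (-0.79), each below in hindlimb without overlap. None passed the adjusted threshold. Macrophage (1874 to 2099 and 1797 to 1952) and nerve (1448 to 1563 and 1224 to 1555) markers overlapped as well. So did the 11 autopod mesenchyme markers on the A array (13535 to 15145 and 11471 to 15045). On the B array 4 of these gave 27320 to 29342 and 31127 to 36126. That sum includes Tbx4 (1.99, limma adjusted p = 1.67e-04). The other lists are given for the A array alone. The log2 ratio of 3' to 5' Gapdh signal, a measure of RNA quality, on the A array was -0.239 to -0.078 in forelimb and -0.299 to -0.263 in hindlimb. For actin this ratio overlapped, at 0.118 to 0.261 and 0.222 to 0.270. Their part in the replication values was not tested.

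Other genes of the cell cycle, 126 listed beside the members, were read in the same fits, and 0 of the 106 tested on the A array and 0 of the 46 on the B array had an adjusted p under 0.05. At an unadjusted p under 0.05 there were 6 higher and 1 lower in hindlimb on the A array, and 2 and 0 on the B array, where 5.54% of all tested probe sets of each array passed. Further replication genes, such as origin recognition, polymerase and clamp loader subunits, had positive values in 28 of 38 on the A array (median 0.086) and in 14 of 16 on the B array (median 0.157). Further mitotic genes had 22 of 43 (median 0.009) and 11 of 21 (median 0.004), and further regulators 12 of 25 (median -0.014) and 5 of 9 (median 0.072). Over all tested probe sets 47.8% were positive on each array, with medians of -0.009 (A) and -0.014 (B). Most of the further replication genes of the B array were also tested on the A array in the same numbered samples. Their B count is therefore no separate support. Some of those B probe sets were dim, such as Pole2 (23.6 to 181, 0.64 ± 0.50) and Orc4 (61.4 to 154, 0.35 ± 0.39). Pola2, a subunit of the primase and polymerase alpha complex, had the smallest p of the positive values. Its A array values were 428, 563 and 398 in forelimb and 541, 802 and 819.5 in hindlimb (0.60 ± 0.19, limma adjusted p = 0.633), so hindlimb 12 lay inside the forelimb range.

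E2F family regulators followed in that order. E2f6, a repressive E2F factor, had 837, 822 and 733 in forelimb and 1008, 1036 and 1015 in hindlimb (0.34 ± 0.12, limma adjusted p = 0.692). E2f5, which works with the retinoblastoma relatives, had 567, 643 and 572 in forelimb and 814, 756 and 738 in hindlimb (0.36 ± 0.12, adjusted p = 0.706). The limbs did not overlap on these A probe sets, where 4.94% of all tested A probe sets were above in hindlimb in this way. The genes named here were picked by small p, which favours limbs that part. On the B array E2f6 gave -0.02 and E2f5 0.09, with overlapping limbs. The B array gave, for E2f3, an activating E2F factor, 0.30 ± 0.13 (adjusted p = 0.894) and Tfdp2, a dimer partner of E2F factors, 0.27 ± 0.12 (adjusted p = 0.896). Both were above in hindlimb without overlap, as were 4.81% of all tested B probe sets. An A probe set of E2f3 gave -0.14. Other E2F genes gave -0.06 (E2f4) and -0.16 (E2f8) on the A array and -0.02 (E2f2) and 0.07 (E2f7) on the B array. In the other direction stood the Cdk4 and Cdk6 inhibitor Cdkn2c, with 452, 515 and 523 in forelimb and 432, 286 and 320.5 in hindlimb (-0.50 ± 0.16, adjusted p = 0.647). Cdc25b, a phosphatase of Cdk1, gave -0.26 ± 0.13 (adjusted p = 0.94) and Myc, a growth regulator near the signal filter, -0.35 ± 0.24 (adjusted p = 0.955). On the B array the lowest p values of the negative side belonged to Anln, the cytokinesis scaffold anillin (-0.45 ± 0.25), and Hmgb2, a chromatin protein of dividing cells (-0.28 ± 0.17), which gave -0.03 and 0.00 on the A array.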

How the data were processed

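Each deposited table holds 1 intensity per probe set and sample, from MAS5.0 per the labels, which name it for all but 1 array (A array, forelimb 11). The authors' scaling left a 2% trimmed mean of 350.1 for A tables and 70 for B tables, and levels were not compared across designs. Symbols came from the platform annotation, updated through gene identifiers with a GRCm38.p6 gene table. Arrays were scaled to a trimmed mean of 500, control probe sets left out, and hindlimb compared with forelimb across all tested probe sets of a design (limma 3.58.1, run in R 4.3.3, with lmFit and eBayes, a mean trend, two-sided tests, Benjamini-Hochberg adjustment). The fit was run on simulated data with known changes, with noise drawn from its own variance model. How often changes as small as those seen here were recovered is not given. A gene is given by its brightest tested probe set. Values in every sample were given for Pcna, Mki67, Ccnd1, Ccnd2 and Cdk1, for the 4 genes of smallest p per group (2 on the B array) and where probe sets of a gene differed by over 0.5. Mcm7, Kif11, Tyms and E2f1 were given in more detail after their values were seen. Further genes named beside the members were the 3 of smallest p per direction (2 on the B array). The members, groups and lists were chosen with earlier results of these data known. The alternatives tried are given in the closing section. Figures were drawn with matplotlib 3.10.9. The number of arrays limits the precision.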

Additional observations from a re-analysis of the deposited data

How the results depend on the processing

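In 16 alternatives on each array, 0 member probe sets passed the adjusted threshold. They were leaving out each sample, a pooled adjustment of both designs, consecutive numbers as a block, limma without its trend or with array weights, quantile normalization, the unscaled deposited values, another signal filter (200 or none) and another pseudocount (1 or 100). For named probe sets the pooled adjustment was not run. Some, such as Cdc45 on the B array, did not pass the filter with the deposited values. In the 416 values that were computed the smallest adjusted p was 0.405 (Cdc45 on the B array). The replication median on the A array stayed positive in all 17 alternatives (0.049 to 0.12), and the count of positive genes ran from 10 (without forelimb 25) to 13. Replication minus mitotic genes there ran from 0.034 (without hindlimb 12) to 0.107 (without hindlimb 26). The mitotic median there changed sign under quantile normalization (-0.012) and without forelimb 25 (-0.006). The G1 median there was negative throughout, and ran from -0.177 to -0.047 with a sample left out. The count of members at an unadjusted p under 0.05 on the A array became 1 without the trend, 5 with array weights, 4 with the block, and 1 (without forelimb 11) to 5 (without forelimb 13) with a sample left out, and was 4 without hindlimb 26. On the B array it became 0 with values as deposited, 2 without the trend, 2 with the block, and 1 to 3 (without forelimb 13) with a sample left out, and was 2 without hindlimb 26. The replication median on the B array ran from -0.122 to 0.092 with a sample left out, and that of replication minus mitotic genes from -0.129 to 0.079. The latter was 0.117 with values as deposited, and the B median of G1 genes was -0.03 with the mean over probe sets. With values as deposited, 5199 B probe sets were tested in place of 17145, and 6 of the 8 further replication genes tested were positive, against 14 of 16. Of 416 values of 28 named probe sets, 10 changed sign: Ccnd1 (-0.002) and Mki67 (0.005) with array weights, and with a sample left out Cdk4, Cdk2, Ccnd1, Cdk1, Mki67 and Ccnd3 on the B array. Their ranges there were -0.133 to 0.013, -0.177 to 0.055, -0.099 to 0.15, -0.057 to 0.028, -0.173 to 0.018 and -0.12 to 0.313. The cause of these changes was not tested. Consecutive numbers are not said to pair the samples. On the A array deviations of neighbours correlated at 0.208 (11 and 12), 0.108 (13 and 14) and 0.076 (25 and 26), each the best match of both samples, and on the B array at 0.002, 0.048 and 0.039. The counts of positive genes and the values of Mcm7 were added after seeing the data, and the 4 Mcm7 values stayed positive in all 15 alternatives each.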
